A study of Mus musculus with 12 samples.

Results

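The 10 genes described here encode the scaffold of the cornified envelope of the skin, the transglutaminases that cross-link it, and proteins that accompany it. They are the precursors Lor and Ivl, the transglutaminases Tgm1, Tgm3 and Tgm5, the plakins Evpl and Ppl, and Cdsn, Scel and Krtdap. They were taken by gene symbol, with earlier results of these data known, from 23234 symbols measured by RNA sequencing in 12 libraries of mouse ear skin. All 10 were found, all were above 0 in every library, and all passed the filter that kept 14059 genes for testing.

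The cornified envelope is the cross-linked protein shell that replaces the plasma membrane of a keratinocyte when it becomes a dead cell of the outer skin. Envoplakin, periplakin and involucrin are laid down first under the membrane, loricrin then makes up most of its mass, and transglutaminases join the proteins by isopeptide bonds. Sciellin is a further envelope precursor, corneodesmosin holds the dead cells together, and keratinocyte differentiation-associated protein is a small secreted protein of the differentiating layers. Active vitamin D is known to promote keratinocyte differentiation, and in cultured human keratinocytes it raises involucrin and transglutaminase 1.

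The 12 libraries formed 4 groups of 3, all from mice aged 8 to 12 weeks. VDRcKO_Oxarol ears carried the labelled genotype K5-Cre;VDR f/f, in which the keratin 5 promoter directs Cre to basal keratinocytes and Cre acts on a vitamin D receptor gene flanked by recombination sites, and received 100 mg of Oxarol ointment with 2.5 µg of maxacalcitol, an active vitamin D3 analogue. WT_Oxarol ears of C57BL/6J mice received the same ointment, WT_PBS ears of the same strain received phosphate-buffered saline, and WT_untreated ears of the same strain received nothing. Treated ears were taken 1 day after application. The saline is not the ointment base, and VDRcKO ears without ointment were not analysed here. Cells outside the keratin 5 lineage keep the receptor, and whole ear skin holds many of them. Whether each library is a separate animal is not stated in the labels. The p-values therefore reflect the spread between libraries, which may be technical.

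Values are FPKM, that is fragments counted per length of transcript and scaled for the size of the library. In 11 libraries 17323 to 18413 symbols were above 0, and in WT_PBS replicate 3 19478 were. That library also had a summed level of 6 sebaceous gland markers of 234 FPKM, against 2114 and 2048 FPKM in WT_PBS replicates 1 and 2. Not all 6 fell, with Awat2 at 22.1 FPKM there, against 6.60 and 5.48 FPKM. Fasn was at 9.58 FPKM, against 10.6 and 10.1, and Elovl3 at 190, against 240 and 278 FPKM. The sum of 6 suprabasal keratinocyte markers in WT_PBS replicate 3 was 5595 FPKM, against 10701 and 14641 FPKM. Of these, Dmkn was at 2121, against 2456 and 2820 FPKM. An alternative setting treated 242 values of 0 in genes with a median of at least 10 FPKM as missing. What lay behind the lower sums was not tested. Pearson correlations between libraries of a group ranged from 0.964 to 0.982 on the log2 scale. WT_untreated replicate 1 stood apart by transcript length. There the median deviation of transcripts of at least 5000 bases lay 0.31 on the log2 scale below that of transcripts under 1500 bases, against differences of -0.12 to 0.14 in the other 11 libraries. Evpl and Ppl, with transcripts of 6.4 and 6.2 kb, had their lowest and second-lowest values of all libraries there, and Krtdap, with 0.5 kb, had its highest. Cyp24a1, the vitamin D-degrading enzyme and a standard receptor target, stood at 0, 0.271 and 0.175 FPKM in VDRcKO_Oxarol, against 66.2, 599 and 458 FPKM in WT_Oxarol. Gene-level Vdr averaged 22.2 ± 3.72 FPKM in VDRcKO_Oxarol and 7.20 ± 0.61 FPKM in WT_Oxarol (SD, n = 3 each), which goes against the direction of the genotype label. Such a value includes exons that the deletion leaves in place, so it does not check the deletion, and VDRcKO_Oxarol below means the libraries so labelled.

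Promoter sequences are shown for 4 of the genes because the pair at the ends of a gene cluster, Lor and Ivl, had the largest changes of the 10 between VDRcKO_Oxarol and WT_Oxarol, and because these 4 share a short motif. The 250 bases before the transcription start were taken from RefSeq (GRCm38.p6), which gave 10 windows for 8 of the 10 genes, all but Evpl and Ppl. Capitals mark the AP-1 motif TGAGTCA, also read from the other strand as TGACTCA, and the TATA box TATAAA, searched on the gene's strand. The windows of Lor (chr3:92083143-92083392, minus strand) and Ivl (chr3:92573736-92573985, minus strand), and 60 bases around the AP-1 match of Krtdap (chr7:30787798-30787857, plus strand) and Scel (chr14:103513279-103513338, plus strand), read 5′ to 3′ as follows.
Lor: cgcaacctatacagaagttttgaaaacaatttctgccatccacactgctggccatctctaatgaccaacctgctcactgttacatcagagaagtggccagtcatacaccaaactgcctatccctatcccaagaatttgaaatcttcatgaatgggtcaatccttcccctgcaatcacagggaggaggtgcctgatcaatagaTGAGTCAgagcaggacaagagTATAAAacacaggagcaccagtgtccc
Ivl: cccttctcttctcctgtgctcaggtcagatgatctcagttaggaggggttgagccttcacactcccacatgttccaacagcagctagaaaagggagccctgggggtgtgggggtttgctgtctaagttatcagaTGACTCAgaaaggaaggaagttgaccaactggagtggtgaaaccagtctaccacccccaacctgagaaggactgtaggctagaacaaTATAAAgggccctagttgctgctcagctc
Krtdap: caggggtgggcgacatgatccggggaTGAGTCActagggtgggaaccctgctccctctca
Scel: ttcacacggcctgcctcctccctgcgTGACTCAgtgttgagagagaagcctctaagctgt
AP-1 factors are protein dimers, among them those of Fos and Jun proteins, that are known to act on many genes of keratinocyte differentiation. The AP-1 letters occurred in 4 of the 10 windows, 1 in each of 4 genes, against 4.46% of all 32851 promoter windows of this length. They began at position -48 from the start in Lor, -116 in Ivl, -81 in Krtdap and -36 in Scel. The TATA box occurred in 4 of the 10 windows, 1 each of Lor (-27), Ivl (-29), Krtdap (-30) and Tgm3 (-28), against 7.59% of all windows. The direct repeat bound by the vitamin D receptor, searched in its strict form on both strands, was in 0 of the 10 windows and in 0.0396% of all windows. These matches are letters in a window and not measured binding.

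Levels of the 10 genes spanned 3 orders of magnitude and kept much the same order in every library. FPKM is per length, so levels of different genes can be set side by side, though only roughly. In WT_untreated replicate 1 levels also differed by transcript length. Krtdap averaged 8886 FPKM over the 12 libraries and was the most abundant gene in each of them, with 1.47% to 2.17% of all summed FPKM. Lor averaged 760 FPKM, Cdsn 207, Scel 73.0, Ppl 47.0, Ivl 38.7, Tgm1 19.4, Evpl 12.8, Tgm5 10.1 and Tgm3 7.49 FPKM. The first 4 places were taken by the same genes in 12 of 12 libraries. Among neighbours, Ppl exceeded Ivl in 10 libraries, Ivl exceeded Tgm1 in 11, Evpl exceeded Tgm5 in 10 and Tgm5 exceeded Tgm3 in 11. Ranges of these neighbouring pairs overlapped over the 12 libraries. Ivl varied most of the 10, with 3.06-fold between its highest and lowest library, followed by Evpl with 2.75-fold and Tgm3 with 2.36-fold. Scel varied least, with 1.45-fold.

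**Figure D1:**
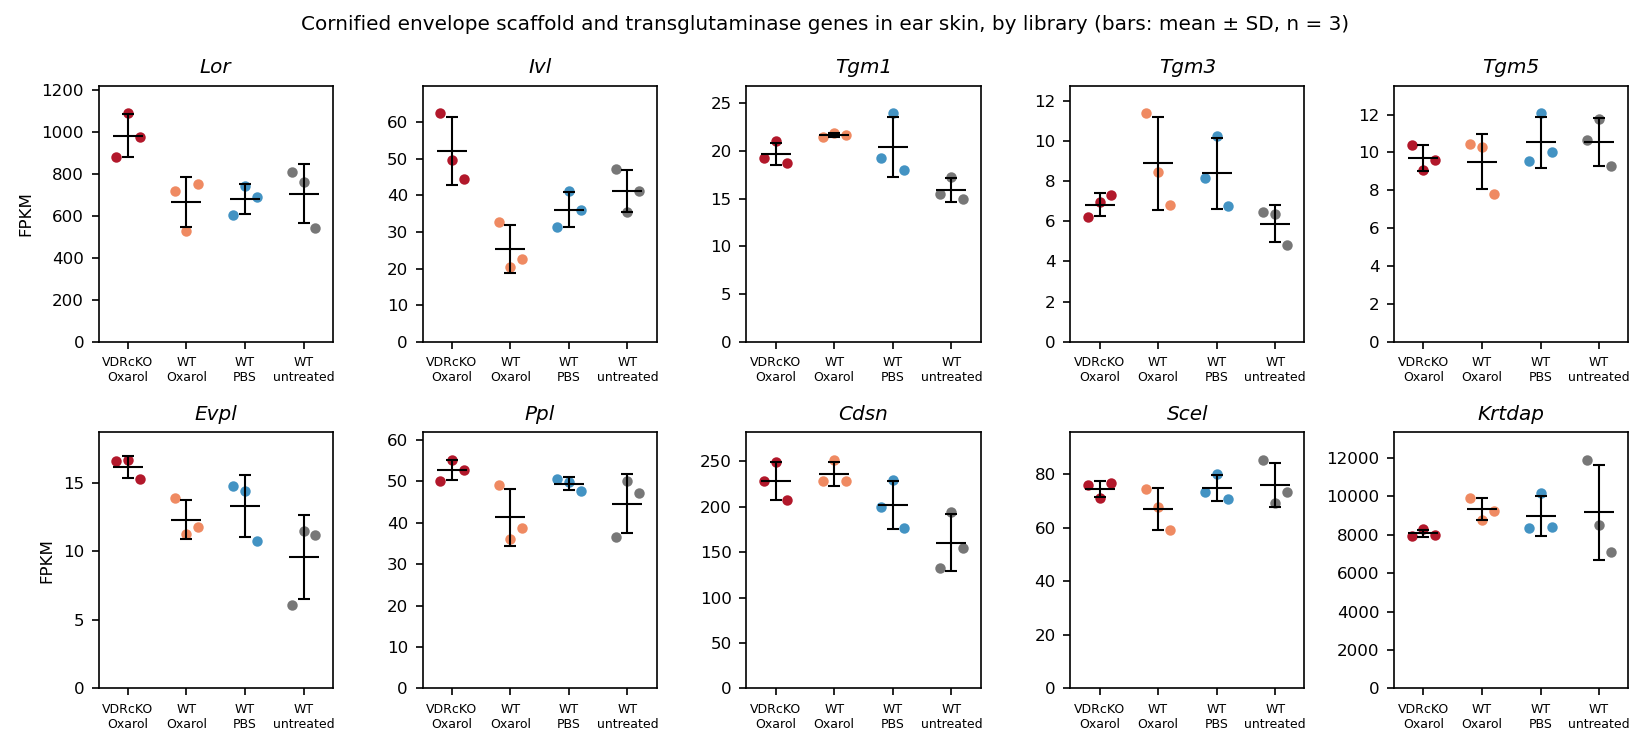
FPKM of the 10 genes (vertical axes, linear, from 0) in each of the 12 libraries. Points are libraries, long bars are group means and whiskers are SD (n = 3). Ivl lies at 44.3 to 62.3 FPKM in VDRcKO_Oxarol, above its 20.4 to 32.8 FPKM in WT_Oxarol.

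Between the 2 ointment-treated genotypes, Ivl was the gene that changed, and Lor, Ppl and Evpl had higher values that did not pass the test. Values were compared as log2(FPKM + 1) with limma, and a gene was called at a Benjamini-Hochberg adjusted p under 0.05 over all 14059 genes. By this rule 1 of the 10 genes was higher in VDRcKO_Oxarol and 0 were lower, against 13.1% of all genes called and 8.71% called higher. The share is close to that background. Of the 1848 genes called, 66.3% were higher, against 38.8% of those called with quantile normalization and 41.8% with median-of-ratios scaling, so the split by direction over all genes depends on the scaling. Ivl was higher under both. Libraries did not overlap for 6 of the 10, against 42.2% of all genes, and 4 of these 6 were above and 2 below. The median change of the 10 was 0.09 on the log2 scale, against 0.08 for all genes.

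Ivl encodes involucrin, the glutamine-rich early scaffold of the envelope. It stood at 62.3, 49.5 and 44.3 FPKM in VDRcKO_Oxarol, against 32.8, 20.4 and 22.7 FPKM in WT_Oxarol. All 3 VDRcKO_Oxarol libraries were above all 3 WT_Oxarol libraries. The mean was 52.0 ± 9.28 FPKM in VDRcKO_Oxarol and 25.3 ± 6.60 FPKM in WT_Oxarol (SD, n = 3 each), a ratio of 2.06, and the log2 change was 1.03 ± 0.19 (SE; 95% interval 0.61 to 1.44; limma adjusted p = 0.0128). Without WT_Oxarol replicate 2, its lowest library, the change was 0.89 and the adjusted p 0.0506.

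Both wild type groups without ointment had mean Ivl levels between those of the 2 ointment-treated groups. It stood at 31.3, 41.0 and 35.9 FPKM in WT_PBS and at 47.0, 35.5 and 41.3 FPKM in WT_untreated. Every VDRcKO_Oxarol library was above every WT_PBS library, with a log2 change of 0.51 ± 0.19 (SE; limma adjusted p = 0.0846). WT_Oxarol overlapped WT_PBS in 1 library of each, with a change of -0.52 ± 0.19 (SE; limma adjusted p = 0.474). WT_Oxarol lay below every WT_untreated library, with a change of -0.70 ± 0.19 (SE; limma adjusted p = 0.102). The 3 comparisons share libraries with one another and with the genotype comparison, so they are not separate evidence.

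Library codes in the labels fall into 2 ranges, and all VDRcKO_Oxarol libraries carry codes of the second, S15059 to S15069, with 1 library of each wild type group. Within the second range, Ivl was at 44.3 to 62.3 FPKM in the 3 VDRcKO_Oxarol libraries, against 22.7 FPKM in the WT_Oxarol library, 35.9 FPKM in WT_PBS and 41.3 FPKM in WT_untreated. The change within that range was 1.15, as large as over all libraries, with an adjusted p of 0.119 (limma, 3 libraries against 1, the lone library assumed to vary like the others). With the code range as a term it was 1.06 (limma adjusted p = 0.0474).

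Lor encodes loricrin, the glycine-rich main protein of the mature envelope. It stood at 884, 1091 and 977 FPKM in VDRcKO_Oxarol, against 720, 529.8 and 752 FPKM in WT_Oxarol. The VDRcKO_Oxarol libraries were the 3 highest of all 12. The log2 change from WT_Oxarol was 0.57 ± 0.18 (SE; 95% interval 0.17 to 0.97; limma adjusted p = 0.0595), a ratio of means of 1.47, and it did not pass the threshold. Against WT_PBS, at 606, 746 and 691 FPKM, the change was 0.53 ± 0.18 (SE; limma adjusted p = 0.0667). WT_untreated stood at 809, 765 and 545 FPKM, and overlapped both treated wild type groups. Without WT_untreated replicate 1, which enters this comparison through the shared spread alone, the same change from WT_Oxarol had a limma adjusted p of 0.0364. Without WT_Oxarol replicate 2 the change was 0.41 (limma adjusted p = 0.186). Within the second code range it was 0.38 (limma adjusted p = 0.238).

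Periplakin (Ppl) and envoplakin (Evpl) are plakin-family partners that tether keratin filaments to the envelope. Ppl stood at 50.2, 55.2 and 52.8 FPKM in VDRcKO_Oxarol, against 49.1, 36.0 and 38.8 FPKM in WT_Oxarol. The groups were apart by a small margin, and the change was 0.36 ± 0.13 (SE; limma adjusted p = 0.0924). Evpl stood at 16.6, 16.7 and 15.2 FPKM in VDRcKO_Oxarol, against 13.9, 11.3 and 11.8 FPKM in WT_Oxarol. These groups did not overlap either, with a change of 0.37 ± 0.20 (SE; limma adjusted p = 0.231). Without WT_untreated replicate 1 the limma adjusted p was 0.0341 for Ppl and 0.0498 for Evpl, so 4 of the 10 genes were then called. Over all genes 3433 were then called in place of 1848. Without WT_Oxarol replicate 2 the changes were 0.27 for Ppl and 0.315 for Evpl (limma adjusted p = 0.264 and 0.423). With the library code range as a term the limma adjusted p was 0.221 for Ppl and 0.386 for Evpl.

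None of the 3 transglutaminases passed the test, and all their intervals included 0. Tgm1 encodes the membrane-anchored enzyme of the upper epidermis whose loss in people causes lamellar ichthyosis. It stood at 19.3, 21.0 and 18.8 FPKM in VDRcKO_Oxarol, against 21.5, 21.9 and 21.6 FPKM in WT_Oxarol. The groups did not overlap, but the change was -0.14 ± 0.10 (SE; 95% interval -0.37 to 0.09; limma adjusted p = 0.389). Tgm3 encodes a soluble enzyme activated by proteolysis, found in epidermis and hair follicle. It stood at 6.21, 6.96 and 7.33 FPKM in VDRcKO_Oxarol, against 11.4, 8.45 and 6.82 FPKM in WT_Oxarol. These groups overlapped, with a change of -0.31 ± 0.18 (SE; 95% interval -0.72 to 0.10; limma adjusted p = 0.265). The change of Tgm3 was -0.0435 with the library code range as a term and -0.0004 within the second code range. Tgm5 encodes an enzyme whose loss in people causes peeling of the outer skin. It stood at 10.4, 9.09 and 9.61 FPKM in VDRcKO_Oxarol, against 10.4, 10.3 and 7.82 FPKM in WT_Oxarol, and the 95% interval of its change ran from -0.25 to 0.32. None of these 3 genes passed the test in any of the 5 comparisons.

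The other 3 genes overlapped or lay close together. Krtdap stood at 7958, 8278 and 7974 FPKM in VDRcKO_Oxarol, against 9928, 8789 and 9250 FPKM in WT_Oxarol. Its libraries did not overlap, with a change of -0.21 ± 0.20 (SE; 95% interval -0.65 to 0.23; limma adjusted p = 0.495). Scel stood at 75.7, 70.9 and 76.5 FPKM in VDRcKO_Oxarol, against 74.2, 67.7 and 58.9 FPKM in WT_Oxarol, and overlapped. Cdsn stood at 228, 249 and 207 FPKM in VDRcKO_Oxarol, against 228, 252 and 228 FPKM in WT_Oxarol. Its groups overlapped, with VDRcKO_Oxarol replicate 3 below every WT_Oxarol library. The 95% intervals of the log2 changes were -0.07 to 0.38 for Scel and -0.37 to 0.26 for Cdsn.

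**Figure D2:**
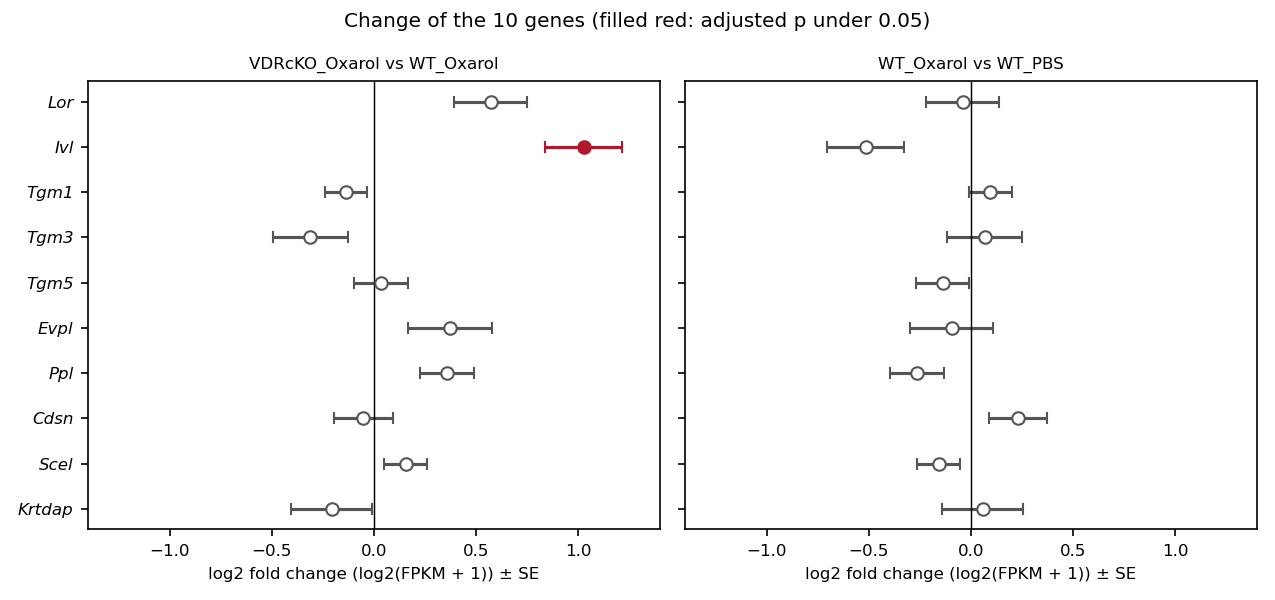
log2 fold change of each of the 10 genes on the log2(FPKM + 1) scale (horizontal axes) for VDRcKO_Oxarol over WT_Oxarol (left) and WT_Oxarol over WT_PBS (right). Points are fitted changes, whiskers are SE, and the filled red point has an adjusted p under 0.05. That point is Ivl at 1.03 on the left, and no point on the right is filled.

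The ointment in wild type skin was compared with saline to ask how these genes respond to the analogue 1 day after application. None of the 10 was called, against 0.306% of all genes (43 of 14059). Of the 10, 1 (Ivl) had an unadjusted p under 0.05, against 7.45% of all genes (1047). The groups overlapped for all 10, against 15.9% of all genes that did not overlap. The median change of the 10 was -0.07, against 0.01 for all genes. The lowest bound of the 10 intervals at 95% was -0.93, for Ivl, and the highest was 0.55, for Cdsn, so larger shifts in either direction lay outside all of them.

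Tgm1 stood at 21.5, 21.9 and 21.6 FPKM in WT_Oxarol, against 19.2, 23.9 and 18.0 FPKM in WT_PBS. Its WT_Oxarol libraries lay inside the WT_PBS range, and the 95% interval of the change was -0.14 to 0.32. Lor (interval -0.44 to 0.36), Tgm3 (-0.34 to 0.47), Evpl (-0.55 to 0.35) and Krtdap (-0.38 to 0.50) also had intervals on both sides of 0. Ppl stood at 49.1, 36.0 and 38.8 FPKM in WT_Oxarol, against 50.7, 50.0 and 47.6 FPKM in WT_PBS. WT_Oxarol replicates 2 and 3 were below all of WT_PBS, with a change of -0.27 ± 0.13 (SE; limma adjusted p = 0.742). Cdsn stood at 228, 252 and 228 FPKM in WT_Oxarol, against 200.2, 229 and 176 FPKM in WT_PBS. Its ranges overlapped slightly, with a change of 0.23 ± 0.14 (SE; limma adjusted p = 0.836).

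Tgm1, Tgm3 and Cdsn had their lowest group means in untreated skin, although no gene of the 10 passed the test against it. Between WT_PBS and WT_untreated 0 of 10 were called, against 0.00711% of all genes (1 gene). Of the 10, 4 had an unadjusted p under 0.05, against 9.33% of all genes (1312). Between WT_Oxarol and WT_untreated 0 of 10 were called, against 1.31% of all genes. Here 4 of the 10 had an unadjusted p under 0.05, against 17.1% of all genes, and 4 did not overlap, against 18.8%. Tgm1 stood at 15.5, 17.3 and 15.0 FPKM in WT_untreated, below every WT_Oxarol and WT_PBS library. Its change was 0.43 ± 0.10 for WT_Oxarol over WT_untreated (SE; limma adjusted p = 0.0803) and 0.33 ± 0.10 for WT_PBS over WT_untreated (SE; limma adjusted p = 0.432). Cdsn stood at 132, 194 and 155 FPKM in WT_untreated, below every WT_Oxarol library, with a change of 0.57 ± 0.14 for WT_Oxarol over WT_untreated (SE; limma adjusted p = 0.0865). Tgm3 stood at 8.14, 10.3 and 6.73 FPKM in WT_PBS, against 6.46, 6.36 and 4.82 FPKM in WT_untreated, which did not overlap. Evpl in WT_untreated was at 6.06, 11.5 and 11.2 FPKM, the low value being the library that stood apart by transcript length. Its change for WT_PBS over WT_untreated was 0.47 ± 0.20 with that library and 0.20 without it (limma adjusted p = 0.527 with it).

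VDRcKO_Oxarol against WT_PBS called 0 of the 10 genes, against 16.3% of all genes. Of the 10, 2 had an unadjusted p under 0.05, against 34.3% of all genes, and 4 did not overlap, against 47.4%. Of all genes called there 66.2% were higher, against 37.4% with quantile normalization and 43% with median-of-ratios scaling. Lor, Ivl and Evpl were above WT_PBS in every library, and Krtdap was below it in every library. Evpl stood at 16.6, 16.7 and 15.2 FPKM in VDRcKO_Oxarol, against 14.8, 14.4 and 10.7 FPKM in WT_PBS, with a change of 0.28 ± 0.20 (SE; limma adjusted p = 0.359).

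Lor and Ivl lie at the ends of a stretch of chromosome 3 that holds the small proline-rich genes, cross-linked bridges between envelope proteins. This stretch was chosen after its values were seen. In the RefSeq order (GRCm38.p6) it held 25 annotated genes, of which 14 were tested. Between VDRcKO_Oxarol and WT_Oxarol 3 of the 14 were higher and 5 were lower, against 8.71% and 4.43% of all genes. The 3 higher genes, Sprr1a, Sprr4 and Ivl, were next to each other. Sprr4 averaged 207 ± 52.1 FPKM in VDRcKO_Oxarol and 15.7 ± 14.1 FPKM in WT_Oxarol (SD, n = 3 each), with a log2 change of 3.92 ± 0.46 (SE; limma adjusted p = 0.00303). The change of Sprr1a was 1.16 ± 0.23 (SE; limma adjusted p = 0.0149). The 5 lower genes were Sprr2a2 (-2.32), Sprr2b (-2.23), Sprr2f (-1.23), Sprr2h (-1.83) and Sprr1b (-1.70 on the log2 scale), with limma adjusted p from 0.00507 to 0.0470. With the code range as a term Sprr2a2 (-2.08; limma adjusted p = 0.0648), Sprr2f, Sprr2h and Sprr1b (limma adjusted p from 0.139 to 0.185) were not called, while Sprr2b was at -1.99 (limma adjusted p = 0.0293). Within the second code range Sprr4 alone of the 8 passed (limma adjusted p = 0.0485, the other 7 from 0.0832 to 0.272). The calls of Sprr2h and Sprr1b were lost without any one WT_Oxarol or VDRcKO_Oxarol library, that of Sprr2f without any one VDRcKO_Oxarol library or WT_Oxarol replicate 1 or 2, and that of Sprr1a without VDRcKO_Oxarol replicate 2. Those of Sprr2f and Sprr1b were also lost without WT_untreated replicate 2 or WT_PBS replicate 1. All 8 Sprr2 genes tested had a negative change. Sprr2 genes are near-identical, so the authors' counting may have split their reads and single values are uncertain. With the ointment, Sprr2a2 averaged 79.5 ± 33.8 FPKM in WT_Oxarol and 3.98 ± 2.77 FPKM in WT_PBS (SD, n = 3 each), a change of 4.09 ± 0.43 (SE; limma adjusted p = 0.00433). Sprr2b rose likewise, to 32.9 ± 12.4 FPKM in WT_Oxarol, against 1.61 ± 0.88 FPKM in WT_PBS (SD, n = 3 each). No other gene of the 14 passed the ointment test, and in a fit of only WT_Oxarol and WT_PBS neither did these 2.

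**Figure D3:**
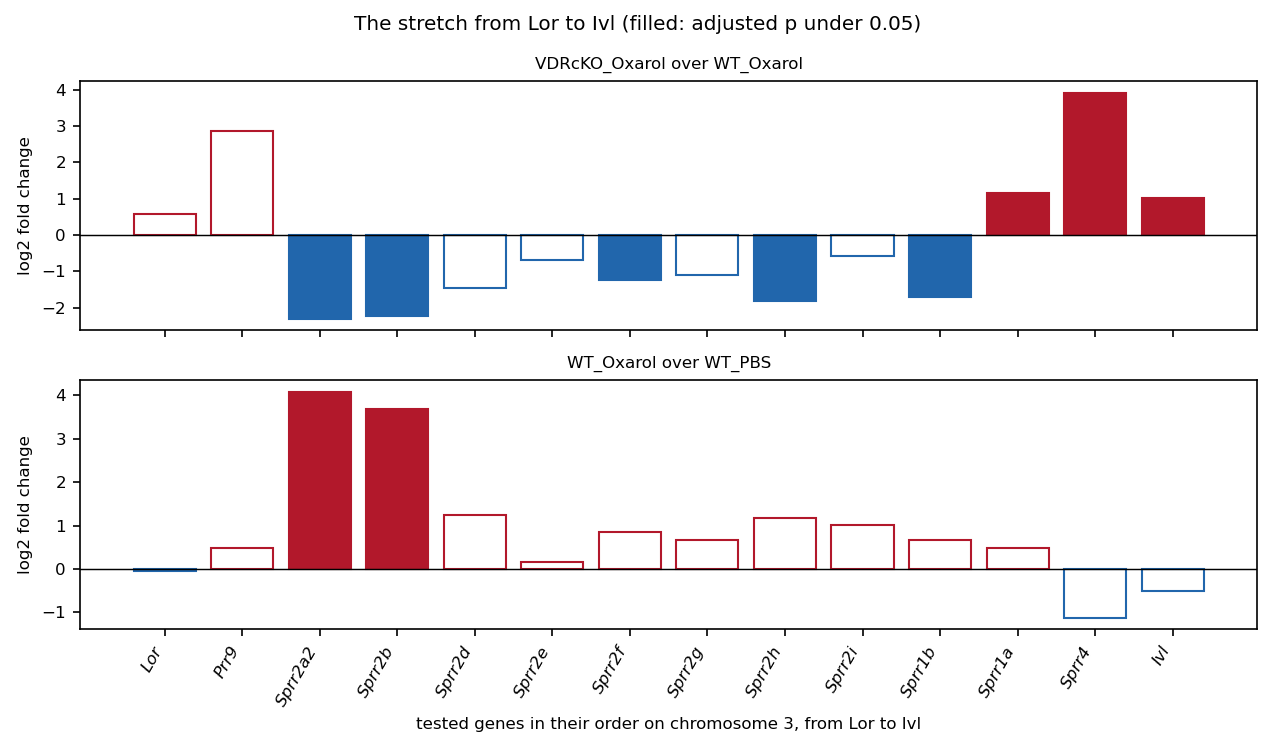
log2 fold change (vertical axes) of the 14 tested genes from Lor to Ivl, in their order on chromosome 3 and not to scale by distance, for VDRcKO_Oxarol over WT_Oxarol (top) and WT_Oxarol over WT_PBS (bottom). Filled bars have an adjusted p under 0.05. In the upper panel Sprr1a, Sprr4 and Ivl are filled above 0, and 5 small proline-rich genes are filled below 0.

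Other genes of cornification were taken from 6 lists, and their calls between VDRcKO_Oxarol and WT_Oxarol are given list by list. Over all genes 8.71% were called higher and 4.43% lower in this comparison. Of 26 tested envelope precursors 6 were higher and 5 were lower, with a median change of 0.16. Besides Sprr4 and the Sprr2 genes, the rule for named genes gave Cst6, the protease inhibitor cystatin M/E, at 389 ± 60.3 FPKM in VDRcKO_Oxarol and 168 ± 11.3 FPKM in WT_Oxarol (SD, n = 3 each; change 1.20, limma adjusted p = 0.00765). Of 13 genes of envelope and corneodesmosome proteolysis 5 were higher and 0 lower, with a median change of 0.30. Casp14, the caspase of cornifying keratinocytes that takes part in filaggrin breakdown, averaged 157 ± 9.34 FPKM in VDRcKO_Oxarol and 37.3 ± 6.37 FPKM in WT_Oxarol (SD, n = 3 each), a change of 2.06 ± 0.18 (SE; limma adjusted p = 0.000689). The cathepsin genes Ctsl (0.87), Ctsc (0.57) and Ctsd (0.58) and the filaggrin-processing protease gene Asprv1 (0.69) had the other 4 changes. The call of Ctsc was lost when WT_Oxarol replicate 2 was left out, that of Asprv1 without WT_Oxarol replicate 2 or VDRcKO_Oxarol replicate 1 or 2, and that of Ctsd without WT_PBS replicate 1, WT_Oxarol replicate 1 or 2, or any one VDRcKO_Oxarol library. With the code range as a term Ctsc (0.46; limma adjusted p = 0.0685) and Ctsd (0.48; limma adjusted p = 0.149) were not called. Within the second code range Casp14 passed at 2.35 (limma adjusted p = 0.0102), and Cst6, Ctsl, Ctsc, Ctsd and Asprv1 did not (limma adjusted p from 0.102 to 0.218). The kallikreins Klk7 and Klk8, which cut corneodesmosomes, did not pass, with changes of -0.05 ± 0.14 and -0.45 ± 0.23 (SE).

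Of 17 regulators of cornification 2 were higher and 0 lower, with a median change of 0.22. These were Cebpa at 1.01 and Zfp750 at 0.55 on the log2 scale, both transcription factors of keratinocyte differentiation. Of 11 genes for the lipids bound to the envelope, Lipn, a lipase of the granular layer, was higher at 0.77 ± 0.18 (SE) and 0 were lower, with a median of 0.06. With the ointment in wild type skin Lipn fell to 5.20 ± 1.49 FPKM in WT_Oxarol, against 12.5 ± 0.30 FPKM in WT_PBS (SD, n = 3 each; limma adjusted p = 0.0296). Of 14 desmosome and plakin partners, Dsp, which encodes the desmosomal plakin desmoplakin, was lower, at 84.2 ± 4.50 FPKM in VDRcKO_Oxarol and 123 ± 21.5 FPKM in WT_Oxarol (SD, n = 3 each; limma adjusted p = 0.0232), and 0 were higher. The list's median was -0.08. Of 3 other transglutaminase family genes tested, F13a1, the coagulation factor XIII A chain also made by macrophages, was higher at 0.55 ± 0.15 (SE; limma adjusted p = 0.0376), and the median was 0.55. The genotype calls of Zfp750, Lipn, Dsp and F13a1 were each lost when any one VDRcKO_Oxarol library was left out, and all but that of Dsp also without WT_Oxarol replicate 2. The calls of Zfp750 and F13a1 were lost without WT_Oxarol replicate 3 too, and that of F13a1 without WT_Oxarol replicate 1 or WT_PBS replicate 1. With the code range as a term none of these 4 was called, at 0.52 for Zfp750, 0.71 for Lipn, -0.40 for Dsp and 0.40 for F13a1 (limma adjusted p from 0.104 to 0.169). Within the second code range neither these 4 nor Cebpa passed (limma adjusted p from 0.107 to 0.132). With the ointment in wild type skin 3 of the 26 envelope precursors were higher, Sprr2b, Sprr2a2 and Rptn, and 0 were lower. Over all genes 0.249% were higher and 0.0569% lower. Lipn was then the single call among the other 5 lists. The ointment calls of Rptn and Lipn were lost when any one WT_PBS library or WT_Oxarol replicate 2 was left out, and that of Lipn also without WT_Oxarol replicate 3 or any one VDRcKO_Oxarol library.

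**Figure D4:**
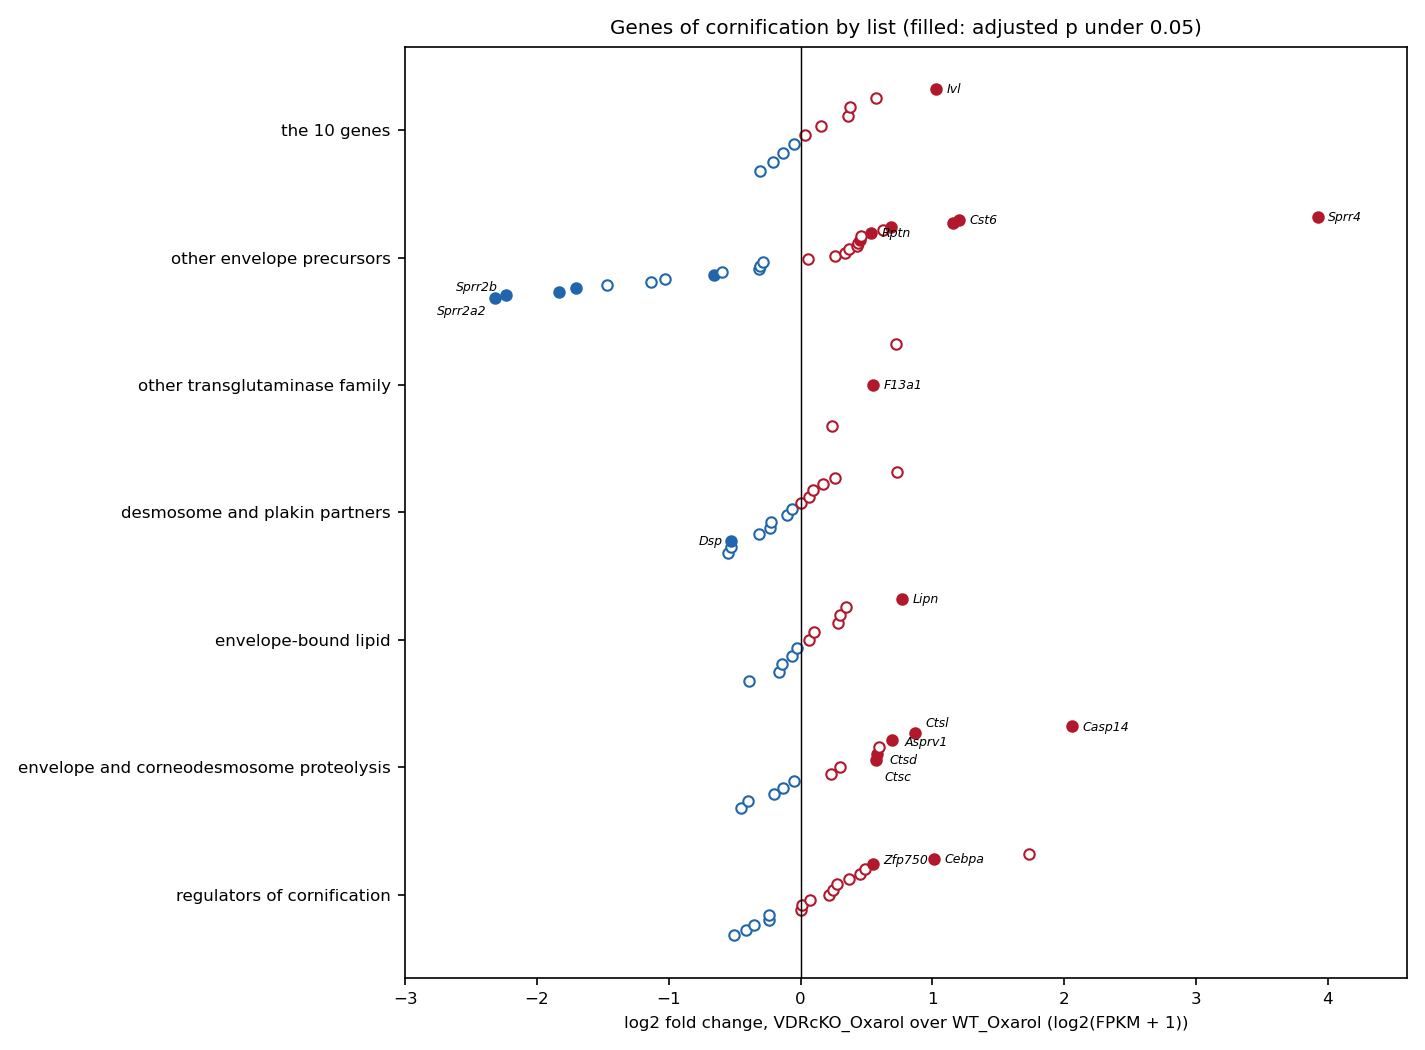
log2 fold change of VDRcKO_Oxarol over WT_Oxarol (horizontal axis) for tested genes of the 10 described and of 6 lists of other cornification genes (rows). Each point is a gene, stacked within a row by its change, and filled points have an adjusted p under 0.05. Sprr4 lies farthest right at 3.92 and Sprr2a2 farthest left at -2.32.

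Some markers of other cell types differed between VDRcKO_Oxarol and WT_Oxarol, where 8.71% of all genes were called higher and 4.43% lower. Whether the follicle, macrophage and fibroblast calls hold with the code range as a term is not given here. Of 18 hair follicle markers tested 14 were higher in VDRcKO_Oxarol, with a median change of 3.70, and the summed level of the 19 in the files was 292 to 1227 FPKM in VDRcKO_Oxarol, 14.6 to 68.7 FPKM in WT_Oxarol, 17.0 to 337 FPKM in WT_PBS and 18.4 to 175 FPKM in WT_untreated. None of these markers was at 0 in all libraries of a group. Their part in the changes above was not tested. WT_PBS replicate 3 and WT_untreated replicate 3, of the second code range, held the highest follicle sums of their groups, at 337 and 175 FPKM. WT_Oxarol replicate 3, of the same range, was at 15.0 FPKM. Of 6 macrophage markers 5 were higher, with sums of 640 to 848 FPKM in VDRcKO_Oxarol and 356 to 461 FPKM in WT_Oxarol, and of 6 fibroblast markers 3 were higher, with sums of 3118 to 3826 FPKM in VDRcKO_Oxarol and 2037 to 2685 FPKM in WT_Oxarol. Of 6 skeletal muscle markers none was called, with sums of 2795 to 3497 FPKM in VDRcKO_Oxarol and 1734 to 2864 FPKM in WT_Oxarol. A different number of cells of a type and a different amount of RNA per cell cannot be told apart in whole skin.

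Among epidermal markers, 0 of 6 basal keratinocyte genes were called between VDRcKO_Oxarol and WT_Oxarol, with sums of 2918 to 3175 FPKM in VDRcKO_Oxarol and 2746 to 3916 FPKM in WT_Oxarol. Of 6 suprabasal genes Krt77 and Sbsn were higher and Dmkn was lower, with sums of 8356 to 10146 FPKM in VDRcKO_Oxarol and 11022 to 12719 FPKM in WT_Oxarol. The sums weigh the most abundant genes, and the mean log2(FPKM + 1) of the same 6 genes went the other way. It was 9.78, 9.98 and 9.85 in VDRcKO_Oxarol, against 9.74, 9.77 and 9.76 in WT_Oxarol. The median change was 0.18, with 3 of the 6 above 0. The suprabasal keratin gene Krt1 was the single epidermal marker called for the ointment, at 420.1 ± 79.0 FPKM in WT_Oxarol and 128 ± 25.6 FPKM in WT_PBS (SD, n = 3 each). Of 6 sebaceous gland markers Fasn was higher in VDRcKO_Oxarol. Of 4 markers of tongue- and oesophagus-type epithelium, Crnn was higher in VDRcKO_Oxarol, while Sprr3 was listed at 0 in every library and Krt13 reached at most 0.358 FPKM. With the code range as a term Krt77, Sbsn, Dmkn, Fasn and Crnn were not called (limma adjusted p from 0.0543 to 0.207). Without WT_Oxarol replicate 2 or 3, or VDRcKO_Oxarol replicate 1 or 3, each of these 5 calls was lost, and all but that of Dmkn also without VDRcKO_Oxarol replicate 2. Krt77, Fasn and Crnn were not called without WT_Oxarol replicate 1, nor were Sbsn, Fasn and Crnn without WT_untreated replicate 2 or WT_PBS replicate 1. Without WT_PBS replicate 2 Sbsn and Fasn were not called, and without WT_PBS replicate 3 Krt77 and Fasn were not. The call of Krt1 was lost in a fit of only WT_Oxarol and WT_PBS.

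For 4 of the genes, the 3 tested genes with the most similar pattern over the 12 libraries were found by Pearson correlation of log2(FPKM + 1). They describe likeness among 12 libraries that share groups and sequencing depth. For Ivl they were Il10rb (0.93), Hspb1 (0.92) and Mfsd1 (0.92). For Lor they were Smagp (0.92), F3 (0.91) and Ctsk (0.91). For Tgm1 they were Arl8b (0.96), Car12 (0.92) and Gm5414 (0.92), and for Tgm3 they were Wdr62 (0.94), Ncapg (0.93) and Kif15 (0.93). Without the 2 libraries farthest from the median the values ranged from 0.79 to 0.94.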

How the data were processed

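Ear skin RNA was made into libraries with an NEBNext Ultra kit and sequenced, as the labels' protocols state. TopHat2 2.0.8, Bowtie2 2.1.0, Cufflinks 2.1.1 and the mouse build mm9 are named in the submitters' processing notes, with no settings. The values were taken as the FPKM the authors deposited, a unit inferred from Cufflinks and the range of the values, since the file headers print none. From the steps of low values, 9 libraries held 0.274 to 1.21 times the reads of WT_PBS replicate 1, with a factor of 2 possible for any. Lowest were VDRcKO_Oxarol replicates 2 and 3, at 0.274 and 0.339, and WT_Oxarol replicate 3, at 0.371. The steps of the other 2, WT_PBS replicate 3 and VDRcKO_Oxarol replicate 1, were not clear.

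Genes reaching 1 FPKM in 3 or more of the 12 libraries were tested as log2(FPKM + 1) in limma 3.58.1 (R 4.3.3), in 1 fit of 4 group means with 8 residual degrees of freedom and a variance trend. The 5 comparisons were adjusted by Benjamini-Hochberg over all genes. The log2(FPKM + 1) scale understates changes of low genes. The scripts were tested on simulated data. Groups came from the labels, and replicate numbers, given in deposit order, pair nothing.

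The 10 genes and all lists were chosen with earlier results of these data known. Named genes are the 10, up to 4 genes per cornification list by adjusted p in the ointment and genotype comparisons, and 3 nearest patterns for 4 genes; others named were chosen after their values were seen. Flg, Sprr2a1, Cers3 and Krt72 were not analysed here, and 1 gene of the regulator list is not reported here. Strandedness is not given in the sources used here, so antisense overlaps cannot be told apart. Transcript lengths covered 98.8% of tested genes. RefSeq promoters are of another build than mm9. Python 3.11.15 and matplotlib 3.10.9 drew the figures.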

Additional observations from a re-analysis of the deposited data

How the results depend on the processing

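No paired analysis was possible because the labels give no replicate numbers that groups share. Over 23 alternatives, 0 of the 10 genes were called for the ointment against saline in any. Ivl between the genotypes ranged from 0.89 to 1.22 (log2 scale; adjusted p 0.0058 to 0.119). The 10 genes gave 2 calls between the genotypes with quantile normalization, 3 in a fit of only the 2 groups, 2 without WT_untreated 3 and WT_PBS 3 together, 0 in codes S15059 to S15069, and 0 to 4 when single libraries were left out. Over all genes 2112, 2547 and 1913 were called in the first 3 of these settings, in place of 1848. Between VDRcKO_Oxarol and WT_PBS the 10 genes gave 2 in a 2-group fit and 0 to 1 with single libraries left out, and between WT_Oxarol and WT_untreated 0 to 1. Of 50 changes of the 10 genes over 5 comparisons, 19 were smaller than their own SE, and their direction was not followed. Krtdap between the genotypes was 0.00 with quantile normalization, which makes the most abundant gene equal in all libraries. Tgm3 for VDRcKO_Oxarol over WT_PBS was 0.023 with the code range as a term and 0.015 in codes S15059 to S15069, in place of -0.25; the cause was not tested. Genes called between the genotypes were 283 with the code term, 53 in codes S15059 to S15069, and 322 (without WT_Oxarol 2) to 3433 (without WT_untreated 1) with single libraries left out, in place of 1848. For the ointment against saline they were 0 in a 2-group fit, 21 without WT_untreated 3 and WT_PBS 3, 8 in codes S15030 to S15041 and 13 to 132 with single libraries left out, in place of 43. For VDRcKO_Oxarol over WT_PBS they were 611 with the code term, 3737 in a 2-group fit, 86 in codes S15059 to S15069 and 543 to 3875 with single libraries left out, in place of 2286. For WT_PBS over WT_untreated they were 5 with a pseudocount of 0.1, 2 with no filter, 6 in a 2-group fit, 3 with a robust variance prior, 10 without WT_untreated 3 and WT_PBS 3, 13 in codes S15030 to S15041 and 1 to 6 with single libraries left out, in place of 1. For WT_Oxarol over WT_untreated they were 90 with no filter, 12 in a 2-group fit, 55 without both, 26 in codes S15030 to S15041 and 34 to 254 with single libraries left out, in place of 184. The settings by library code were chosen after seeing the data. Read counts were not used, so counting error of low genes such as Tgm3 could not be given.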
